A study of Homo sapiens with 4 samples.

Results

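The small nucleolar and Cajal body RNAs of OVCAR3 cells were compared between cells with a knockdown of ANAPC1P2 and wild-type cells. A gene was a member when its symbol began with SNORD (box C/D), SNORA (box H/ACA) or SCARNA (Cajal body) and its mean over the 4 libraries was at least 10 normalized counts. The members were thus chosen by this measured mean, which weights knockdown to wild type 3 to 1 and is no finding. The rule took 101 of 62696 genes, from 553 genes with such symbols: 39 of 314 box C/D, 52 of 214 box H/ACA and 10 of 25 Cajal body RNAs. Just inside the threshold stood SNORA15B-1 with a mean of 10.04 and an SNORA75 copy with 10.5, and just outside it SNORD3C with 9.76 and SNORA24B with 9.60.

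OVCAR3 is an established human ovarian carcinoma cell line. Total RNA depleted of ribosomal RNA was sequenced from 3 libraries of OVCAR3 cells carrying a short hairpin RNA against the pseudogene ANAPC1P2, labelled Set 1 to 3 and called KD 1, KD 2 and KD 3 here, and from 1 library of OVCAR3 cells without it (WT). No library of a non-targeting hairpin is among the 4, so the hairpin and the loss of its target cannot be told apart. Nothing says that the 3 sets are separate cultures or clones, so p-values cover no more than the scatter of these libraries, and that scatter may be technical.

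Small nucleolar RNAs are short noncoding RNAs that guide chemical modification of other RNAs by base pairing. Box C/D RNAs carry the C and D boxes, bind fibrillarin and guide methylation of riboses. Box H/ACA RNAs fold into hairpins that end in an ACA triplet, bind dyskerin and guide the change of uridine to pseudouridine. Cajal body RNAs are built from either or both designs and act on spliceosomal RNAs. Most human members are cut out of introns of a host gene, often a gene for a ribosomal protein or a nucleolar factor, and a few, among them U3 and U13, have promoters of their own.

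The sequences of some of the members that were most abundant or moved most are shown first, 5′ to 3′, from GENCODE 29 transcripts on GRCh38. Capitals mark the boxes found by exact match on the annotated strand: TGATGA (C box) within the first 20 bases and CTGA (D box) within the last 15, or, in H/ACA members, ACA within the last 8. SNORA73B was the most abundant member, SNORA22 and SNORA22C are near-identical copies, SNORA11 is an intronic member, and SCARNA5 and SCARNA6 share the host ATG16L1.
SNORA73B: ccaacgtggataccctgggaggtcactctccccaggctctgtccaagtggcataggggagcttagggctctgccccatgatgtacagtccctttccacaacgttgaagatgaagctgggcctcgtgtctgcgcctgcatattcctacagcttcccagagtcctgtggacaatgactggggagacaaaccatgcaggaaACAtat
SNORA22: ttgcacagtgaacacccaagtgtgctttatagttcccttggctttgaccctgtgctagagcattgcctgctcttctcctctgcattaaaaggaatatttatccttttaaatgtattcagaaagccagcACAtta
SNORA22C: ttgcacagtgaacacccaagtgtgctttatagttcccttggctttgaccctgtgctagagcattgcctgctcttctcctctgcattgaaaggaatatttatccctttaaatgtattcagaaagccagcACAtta
SNORA11: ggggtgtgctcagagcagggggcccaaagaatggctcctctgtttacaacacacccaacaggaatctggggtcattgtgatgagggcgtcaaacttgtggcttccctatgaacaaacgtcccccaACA
SCARNA5: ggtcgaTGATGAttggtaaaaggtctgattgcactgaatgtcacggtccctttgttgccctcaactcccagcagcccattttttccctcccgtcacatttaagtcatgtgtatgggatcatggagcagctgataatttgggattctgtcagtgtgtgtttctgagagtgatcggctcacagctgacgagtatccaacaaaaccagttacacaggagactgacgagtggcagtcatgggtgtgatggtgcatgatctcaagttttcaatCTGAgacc
SCARNA6: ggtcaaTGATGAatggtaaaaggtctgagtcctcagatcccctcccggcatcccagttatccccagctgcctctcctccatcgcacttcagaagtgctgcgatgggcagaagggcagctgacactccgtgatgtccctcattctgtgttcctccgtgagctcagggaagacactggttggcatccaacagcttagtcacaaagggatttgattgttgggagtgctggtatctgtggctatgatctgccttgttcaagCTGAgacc
These genes lie at chr1:28508559-28508762 (SNORA73B), chr7:65755526-65755659 (SNORA22), chr7:65065999-65066132 (SNORA22C), chrX:54814370-54814497 (SNORA11), chr2:233275727-233276002 (SCARNA5) and chr2:233288676-233288940 (SCARNA6), all on the plus strand. All 6 were called higher in KD, but they were picked for their abundance or their rise, so this is no finding. SNORA11 also reached the filter only through KD.

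The members that fell furthest in KD included copies, and SNORD65C, SNORD56B and SNORA70G are shown each with the family member it is named after, so that the differences can be read. SNORD74B and SNORD62B are shown alone.
SNORD65C: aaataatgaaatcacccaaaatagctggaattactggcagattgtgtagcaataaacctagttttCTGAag
SNORD65: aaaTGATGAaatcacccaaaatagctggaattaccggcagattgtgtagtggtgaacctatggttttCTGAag
SNORD56B: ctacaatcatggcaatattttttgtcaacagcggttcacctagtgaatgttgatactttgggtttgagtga
SNORD56: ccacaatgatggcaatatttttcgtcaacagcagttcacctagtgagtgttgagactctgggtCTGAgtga
SNORA70G: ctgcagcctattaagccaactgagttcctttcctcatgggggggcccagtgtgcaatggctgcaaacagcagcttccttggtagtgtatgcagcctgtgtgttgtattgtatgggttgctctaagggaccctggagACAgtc
SNORA70: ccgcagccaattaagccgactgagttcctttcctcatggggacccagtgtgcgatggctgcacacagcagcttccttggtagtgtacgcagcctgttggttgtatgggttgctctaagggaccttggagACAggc
SNORD74B: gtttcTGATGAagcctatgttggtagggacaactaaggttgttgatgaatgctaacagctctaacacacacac
SNORD62B: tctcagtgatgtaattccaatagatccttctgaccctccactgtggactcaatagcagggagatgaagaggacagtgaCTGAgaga
SNORD65C (chr7:23396446-23396516, plus strand) matched SNORD65 (chr17:16441226-16441298, plus strand) at 89.0% of aligned positions and had no exact C box. SNORD56B (chr14:71398337-71398407, plus strand) matched SNORD56 (chr20:2656624-2656694, plus strand) at 88.7% and had neither box, while SNORD56 had the D box. SNORA70G (chr12:68627234-68627375, minus strand) matched the SNORA70 gene on chromosome X (chrX:154400281-154400415, plus strand) at 88.7% of positions, and both kept the ACA. SNORD74B (chr21:16284696-16284768, minus strand) had a C box and no D box. SNORD62B (chr9:131490486-131490571, plus strand) is identical over all 86 bases to SNORD62A (chr9:131485665-131485750, plus strand), so reads of the pair may be shared and their split is uncertain.

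Depth was 48443589 reads in KD 1, 56216398 in KD 2 and 42871815 in KD 3, against 27868718 in WT. WT stood apart in its cell markers. Summed erythroid markers reached 1.55 to 3.79 normalized counts in KD, with reads from 1 of 7 genes in each library and AHSP, HBA1, HBA2, HBB and SLC4A1 at 0 in all 3, against 14867 in WT with reads from 7 of 7. The 10 epithelial markers all had reads in every library and summed to 95828 to 110047 in KD and 552570 in WT, and leukocyte, fibroblast, endothelial and neural lists were also lower in KD (382 to 425 against 1437, 537 to 668 against 1246, 252 to 346 against 479.8 and 2250 to 3282 against 4041). These are sums over lists, and single genes can go the other way: DCN of the fibroblast list was at 0 in WT and had reads in all 3 KD libraries. The part of the marker differences in the results that follow was not tested. In such bulk libraries fewer cells of a type and less RNA per cell cannot be told apart.

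Of the 101 members, 34 were called higher in KD (limma adjusted p under 0.05 over 23344 genes tested), 13 were called lower and 54 were not called. Over all genes tested, 67.7% were called, 31.4% higher and 36.3% lower, so 33.7% of members higher was close to the background and 12.9% lower was below it. The median log2 difference, KD minus WT, was 0.22 over members and -0.28 over all genes tested. With equal library totals the medians were -0.33 and -0.84, so the sign of the members' median depends on the scaling. KD and WT values did not overlap in 87 of 101 members, against 92.3% of all genes tested.

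Box H/ACA members were called higher in 18 of 52 and lower in 7, with a median log2 difference of 0.26 (with equal totals 14 higher, 12 lower and a median of -0.29). Box C/D members were called higher in 11 of 39 and lower in 6, with a median of 0.08, which became -0.04 without KD 1, and with equal totals 7 were higher and 12 lower with a median of -0.43. Of the 10 Cajal body RNAs 5 were called higher and the other 5 were not called, with a median of 0.72 (0.16 with equal totals, when 3 were called higher). The differences between classes were not tested. With equal totals the members called were 24 higher and 24 lower, beside 20.3% and 53.6% of all genes, and no member changed from one called direction to the other under the alternatives run. edgeR called 36 members higher and 16 lower, beside 31.7% and 39.7% of all genes, DESeq2 called 29 and 10, beside 29.6% and 30.3%, and with a mean of 50 or more as the filter 29 and 5 of 40 members were called, beside 45.4% and 32.5%.

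The calls are given by level as a description. The level is the mean that chose the members, and it holds the same 3 KD values and 1 WT value as the difference, so level and difference are coupled by construction and nothing is read from their relation. The bands were chosen after values were seen. Of the 28 members at or above a mean of 100, 22 were called higher and 1 lower, SNORD39, beside 49.8% higher and 26.5% lower of all genes in that band. Genes of at most 300 exonic bases that are no members were higher in 61% and lower in 35.6% of 59 there. Between 30 and 100, 9 of 34 members were higher and 8 lower, beside 8.39% and 57.6% of all genes and 13.7% and 66.1% of the other short genes. Between 10 and 30, 3 of 39 members were higher and 4 lower, beside 4.69% and 43% of all genes and 1.49% and 56.2% of the other short genes.

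**Figure D1:**
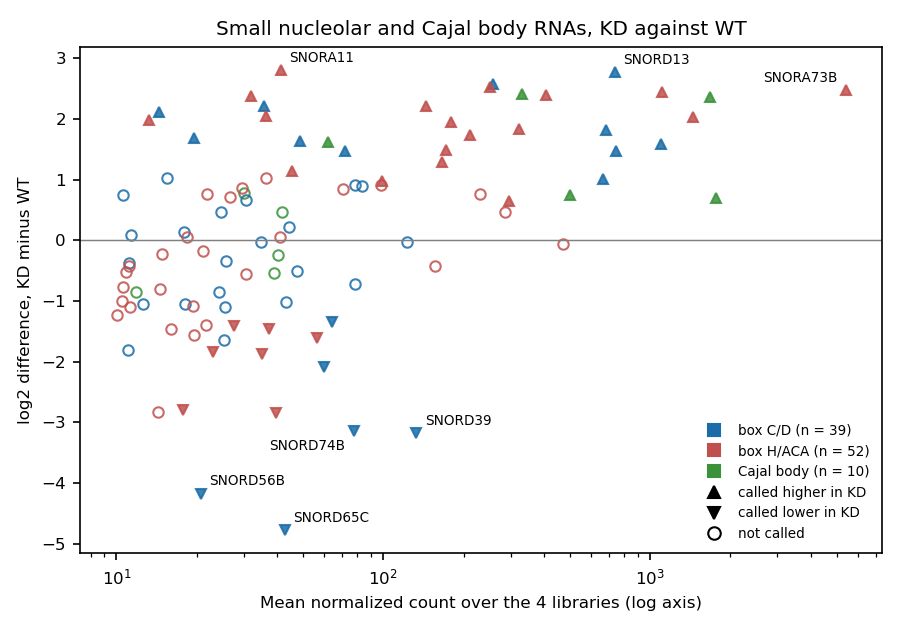
Each point is 1 of the 101 members, with its mean over the 4 libraries in normalized counts (x, log axis) and its log2 difference, KD minus WT (y), coloured by class and shaped by the limma call. Of the 28 members at 100 or more, 22 are called higher and SNORD39 lower, where a high mean and a rise are coupled because 3 of the 4 libraries are KD.

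Summed over its members, every class was higher in KD by either scaling. The 101 members summed to 26318 ± 3403 normalized counts in KD (SD, n = 3) and 10710.4 in WT, a 2.46-fold difference. With libraries scaled to equal totals they reached 574 ± 56.5 RPM in KD and 346 RPM in WT, which is 1.66-fold. Box H/ACA members summed to 14800.3 ± 2229 in KD and 4941 in WT (3.00-fold, and 2.02-fold in RPM). Box C/D members summed to 6242 ± 749 in KD and 3566 in WT (1.75-fold, and 1.18-fold in RPM). In RPM that was 136.4 in KD and 115.2 in WT, of which the U3 genes SNORD3A, SNORD3B-1 and SNORD3B-2 gave 49.6 and 24.9. Without these U3 genes the C/D sum in RPM was not higher in KD. Cajal body RNAs summed to 5275 ± 599 in KD and 2203 in WT (2.40-fold, and 1.62-fold in RPM). With 1 WT library these sums have no test. Their KD values in each library lay above WT in all 3 classes. SNORA73B alone gave 25.8% ± 1.75 of the members' reads in KD and 11.4% in WT. The Wilson 95% interval of the WT share was 10.7% to 12.01%, for counting error only. Without SNORA73B the sum stood at 19518 ± 2623 in KD and 9493 in WT.

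**Figure D2:**
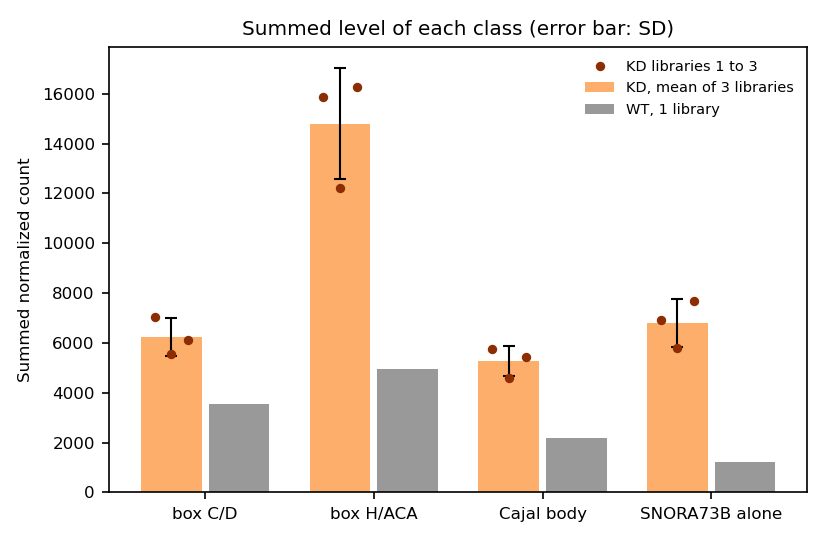
Bars give the summed normalized count of each class and of SNORA73B alone, with the KD mean of 3 libraries and its SD on the left and the WT library on the right, and points give each KD library. H/ACA shows the widest gap, 14800.3 in KD against 4941 in WT, and SNORA73B is part of it.

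Of the members that take part in cleavage of the ribosomal RNA precursor, SNORA73B and the U3 genes were called higher, as was 1 of the U14 genes. SNORA73B, a copy of U17, which acts in 18S maturation, had 6922, 5781 and 7694 normalized counts in KD 1, 2 and 3, against 1217 in WT. All 3 KD libraries were far above WT. The log2 difference was 2.47 ± 0.16 (SE, limma adjusted p = 7.69e-05). U3, the C/D RNA that docks on the precursor before its first cleavages, was counted at 3 member genes. SNORD3B-2 (chr17:19063346-19064136) had 1523, 1289 and 1147 normalized counts in KD 1, 2 and 3, against 437 in WT. SNORD3B-1 had 962, 809.7 and 897 in KD 1, 2 and 3, against 318 in WT. Both copies were higher in every KD library than in WT, with log2 differences of 1.58 ± 0.17 and 1.48 ± 0.14 (limma adjusted p = 0.000353 and 0.000223). SNORD3A had 72.0, 42.7 and 62.3 in KD 1, 2 and 3, against 17.8 in WT (log2 difference 1.64, limma adjusted p = 0.0161), and was not called without KD 1, with equal totals or with no filter. The U3 genes are near-identical, so how reads were divided among them is uncertain, and their sum stood at 2269 ± 251 in KD (SD, n = 3) and 772 in WT.

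U13, encoded by SNORD13 and known for guiding acetylation of 18S RNA, had 1059, 730.5 and 1022 normalized counts in KD 1, 2 and 3, against 134 in WT. The groups did not overlap, and the log2 difference of 2.77 ± 0.23 (limma adjusted p = 0.000129) was the largest among members with a mean of at least 100. U14, which both methylates and helps to process 18S RNA, was counted at 2 member genes. SNORD14E had 84.4, 99.5 and 74.5 in KD 1, 2 and 3, against 29.99 in WT (log2 difference 1.48, limma adjusted p = 0.00831), and lost the call with equal totals. SNORD14A had 68.2, 99.5 and 115.6 in KD 1, 2 and 3, against 48.9 in WT. All KD libraries were above WT, but the log2 difference of 0.90 was not called (limma adjusted p = 0.0709), although edgeR and 3 other alternatives called it.

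Several processing RNAs were listed at 0 in all 4 libraries, namely SNORD118 (U8), SNORD22 (U22), SNORD14B, SNORD14C, SNORD14D, SNORD3D and SNORA73A, along with SCARNA2 and SCARNA17. Each of these shares bases with an exon of another gene on its strand in GENCODE 29. Of the 180 class genes that share such bases, 164 (91.1%) had no read in any library and 4 were members, while of the 371 that share none, 186 (50.1%) had no read and 96 were members. A listed 0 is therefore given without a fold. Of the repeated snoRNAs of imprinted loci, known from brain, the 9 SNORD113 and 30 SNORD114 genes had no read, and SNORD115 and SNORD116 had reads at 3 of 50 and 4 of 33 genes with means of at most 2.50 and 4.47.

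The 18 H/ACA members called higher ranged from SNORA28, at a log2 difference of 0.65, to SNORA11, at 2.81. SNORA11, inside MAGED2 on the X chromosome, had 55.0, 54.4 and 48.9 normalized counts in KD 1, 2 and 3, against 6.66 in WT. The KD libraries were close to each other, and WT rested on 6 reads, which gave a KD to WT ratio of 7.96 with an exact 95% interval of 3.58 to 22.0 for counting error. It reached the mean of 10 only through KD, so a rise was needed for it to be a member, and its log2 difference of 2.81 ± 0.41 is given as a description. SNORA22 had 1462, 1131 and 1606 in KD 1, 2 and 3, against 252 in WT. Its copy SNORA22C, which differs at 2 of 134 bases, had 381, 243 and 325 in KD 1, 2 and 3, against 53.3 in WT. Both copies were higher in all KD libraries by similar amounts, 2.45 and 2.52 on the log2 scale (limma adjusted p = 0.000129 and 0.000429), and reads may be shared between them.

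SNORA23, in IPO7, had 709.9, 340 and 482 normalized counts in KD 1, 2 and 3, against 92.2 in WT. Its KD libraries differed from each other by more than those of SNORA22, with KD 1 highest, and none reached down to WT (log2 difference 2.39 ± 0.37, limma adjusted p = 0.00185). It was not called with no filter on level. SNORA14B, in TOMM20, had 1779, 1476 and 2088 in KD 1, 2 and 3, against 429.8 in WT (log2 difference 2.03, limma adjusted p = 0.000211). SNORA71B was an abundant member that was not called, at 573, 372 and 458 in KD 1, 2 and 3 and 483 in WT. There WT lay inside the KD range, and the log2 difference was -0.07 ± 0.24 (limma adjusted p = 0.808). With equal totals it was -0.63 and was called lower.

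Among the C/D guides, SNORD15B, in the ribosomal protein gene RPS3, had 1047, 663 and 787 normalized counts in KD 1, 2 and 3, against 231 in WT. The KD libraries all stood above WT, with KD 2 lowest, and the log2 difference was 1.82 ± 0.25 (limma adjusted p = 0.000989). Member minus host was 0.49 ± 0.26 (limma adjusted p = 0.116). SNORD12C, in the long noncoding gene ZFAS1, had 124.2, 111.9 and 130.1 in KD 1, 2 and 3 and 124.4 in WT. WT lay within the KD range there, and SNORD12C was the one C/D member with a mean of at least 100 that was not called.

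Among the Cajal body RNAs, SCARNA5 and SCARNA6, known as U87 and U88 and assigned to the U5 spliceosomal RNA, rose most. SCARNA5 had 2438, 1815 and 2073 normalized counts in KD 1, 2 and 3, against 404 in WT. SCARNA6 had 437, 352 and 464 in KD 1, 2 and 3, against 76.6 in WT. Neither overlapped WT, and the log2 differences were 2.37 ± 0.17 and 2.42 ± 0.21 (limma adjusted p = 8.96e-05 and 0.000163). SCARNA7, known as U90, had 2072, 1717 and 2064 in KD 1, 2 and 3, against 1204 in WT, and SCARNA21 had 567, 516 and 598 in KD 1, 2 and 3, against 331 in WT. Every KD library was above WT, by 0.69 and 0.75 on the log2 scale (limma adjusted p = 0.00501 and 0.0044), neither was called with equal totals, and SCARNA7 was not called with no filter. SCARNA18 was the fifth called, at a log2 difference of 1.62 and 59.8 to 91.2 normalized counts in KD against 23.3 in WT. SCARNA1, SCARNA3, SCARNA8, SCARNA9 and SCARNA20 were not called, at log2 differences of -0.85 to 0.78.

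Of the 13 members called lower, 12 had a mean under 100, and several are copies. SNORD65C had 2.84, 13.2 and 2.22 normalized counts in KD 1, 2 and 3, against 153 in WT. SNORD56B had 3.79, 2.33 and 3.34 in KD 1, 2 and 3, against 73.3 in WT. Every KD library was far below WT for both, on 22 and 10 KD reads in all, which gave WT to KD ratios of 22.6 (exact 95% interval 14.3 to 37.2) and 23.8 (12.1 to 51.8) for counting error. The log2 differences were -4.78 ± 0.94 and -4.18 ± 0.65, given as descriptions because both reached the filter only through WT. The family members SNORD65 and SNORD56 had no read in any library, which may reflect the counting rather than their levels and was not tested.

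SNORD39 (ENSG00000264379, chr9:21524307-21524382), inside the long noncoding gene MIR31HG, had 34.1, 79.3 and 27.8 normalized counts in KD 1, 2 and 3, against 391 in WT. SNORD74B had 29.4, 38.9 and 13.3 in KD 1, 2 and 3, against 229 in WT. KD 2 was the highest of the KD libraries for both and still well under WT, with log2 differences of -3.18 ± 0.58 and -3.15 ± 0.61 (limma adjusted p = 0.00364 and 0.00461). SNORD62B had 28.4, 40.4 and 30.02 in KD 1, 2 and 3, against 141 in WT (log2 difference -2.08, limma adjusted p = 0.00404).

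Among H/ACA copies, SNORA70G had 12.3, 29.5 and 7.78 normalized counts in KD 1, 2 and 3, against 109 in WT (log2 difference -2.85, limma adjusted p = 0.0146). One SNORA75 gene (ENSG00000212440) had 13.3, 2.33 and 6.67 in KD 1, 2 and 3, against 48.9 in WT (log2 difference -2.80, a description, since it too reached the filter only through WT). Another (ENSG00000212533) had 22.7, 14.8 and 25.6 in KD 1, 2 and 3, against 77.7 in WT (log2 difference -1.87, limma adjusted p = 0.0154). All 3 stood lower in every KD library than in WT. With no filter on level, SNORD65C, SNORD39, SNORD74B, SNORA70G and both SNORA75 genes lost their calls, and without KD 3 so did the first SNORA75 gene. A group chosen after values were seen is given as a description. GENCODE 29 gives only an RNA family name to 9 members, SNORD39 and copies of SNORD19C, SNORA70, SNORA72, SNORA73 and SNORA75 type. Both SNORA75 genes above are among them. Their log2 differences were -3.18 to -0.80, with 5 called lower and 4 not called. All but SNORD39 had means under 100. Of all genes, 43% were called lower at means of 10 to 30 and 57.6% at means of 30 to 100, so 5 of 9 was close to the background.

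The filter on level shaped these counts at the low end. There were 11 members that reached the mean of 10 only through WT, among them SNORD65C, SNORD56B and the first of the SNORA75 genes above, which were the 3 called lower, and the SNORA73 copy. A further 10 reached it only through KD, among them SNORA11 and SNORA74D, and 7 of them were called higher. Membership of these genes hung on the group where they were higher, so their calls are descriptions. The counts of members called higher and lower given above include them.

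**Figure D3:**
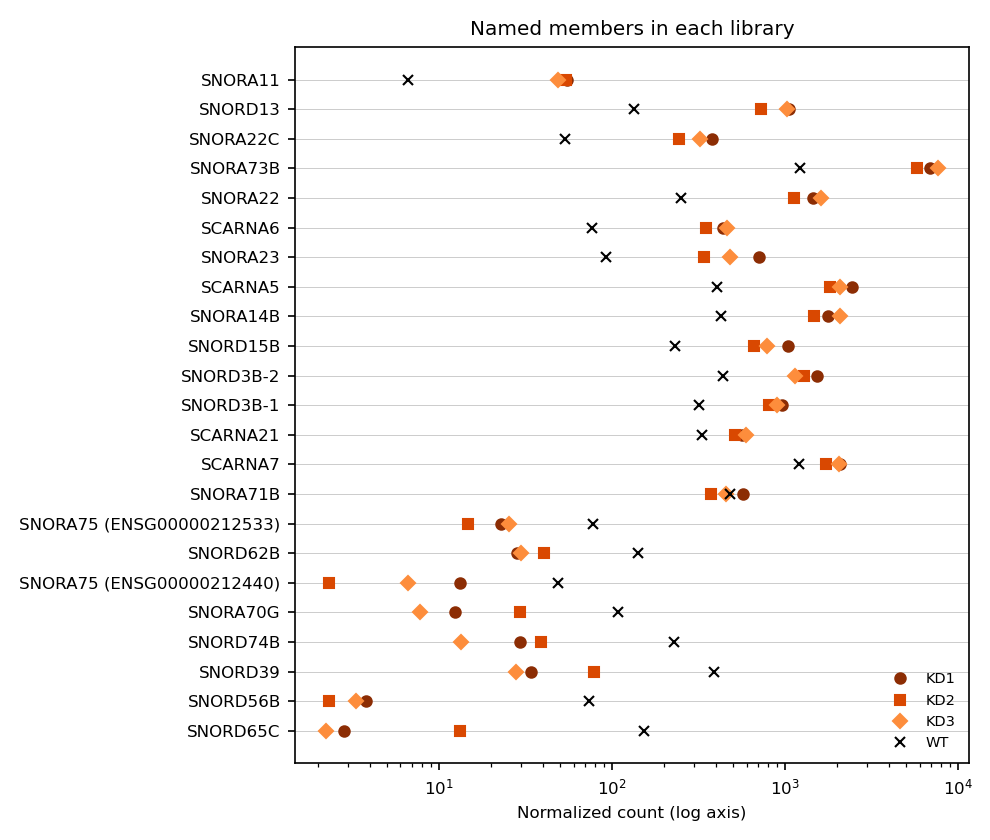
Normalized counts (x, log axis) of the members with the highest levels and the largest rises and falls are shown for KD 1, KD 2, KD 3 and WT, ordered by log2 difference from the top down. SNORA73B runs from 5781 to 7694 in KD against 1217 in WT, SNORA71B has WT within the KD range, and the fallers at the bottom have WT to the right of all 3 KD libraries.

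The KD libraries also differed among themselves in a regular way at the abundant members. KD 2 was the lowest KD library in 26 of the 28 members with a mean of at least 100 and in 33 of 40 (82.5%) with a mean of at least 50, against 45.1% of all genes tested at that level. The coefficient of variation over the 3 KD libraries had a median of 18.3% over those 40 members. Over all genes tested with a mean of at least 50 it was 8.28%. The members and all genes were not matched for level beyond that limit. Leaving out KD 2 gave 33 members called higher and 12 lower. KD 2 was also the deepest library, and the part of depth in this was not tested.

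The exact boxes were scored over the annotated genes. Both C and D boxes were found in 6 of 11 C/D members called higher, 1 of 6 called lower and 14 of 22 not called, against 62.0% of 313 annotated C/D genes at any level. Of the 11 called higher, 3 are U3 genes annotated at 699 to 791 bases, whose ends are not those of the mature RNA, and without them 6 of 8 had both. Among the C/D members called lower SNORD69 had both boxes, and SNORD65C, SNORD56B, SNORD74B, SNORD62B and SNORD39 each lacked at least 1 exact box. An ACA lay in the last 8 bases of 17 of 18 H/ACA members called higher, 6 of 7 called lower and 24 of 26 not called, against 82.2% of 213 annotated H/ACA genes. These matches are descriptions of letters, and a box that varies from the searched letters is not counted. Among those called higher, SNORD67, SNORD6, SNORD93, SNORA11, SNORA47, SNORA63D and SNORA74D reached the filter only through KD. Among those called lower, SNORD65C, SNORD56B and an SNORA75 gene reached it only through WT. No difference between the calls is read from the boxes.

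Hosts were assigned from GENCODE 29 as the same-strand protein-coding or long noncoding gene that contains the member, taking the one with the highest mean where several do. A host was found for 82 members in 73 genes, and 80 of the 82 share no base with a host exon. A read within an intronic member can come from the member or from unspliced host RNA, and these cannot be told apart here. Of the 73 hosts, 54 were called higher, 10 lower and 9 were not called, with a median log2 difference of 1.08, beside 31.4% higher and 36.3% lower over all genes tested and 49.8% and 26.5% over those with a mean of 100 or more. With equal totals 40 were called higher and 19 lower, beside 20.3% and 53.6%. The 10 ribosomal protein hosts were all called higher, with a median of 2.02. Of their 12 members 3 (25%) were called higher and 9 were not called, beside 33.7% higher of all members. The median log2 difference of these 12 was 0.34, beside 0.37 for members in long noncoding hosts and 0.30 for those in other protein-coding hosts. Of the 8 long noncoding hosts 2 were called higher and 4 lower.

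The calls of members were set beside those of their hosts. Among the 26 hosted members called higher, the host was called higher for 18, lower for 4 and not called for 4. Among the 7 hosted members called lower, the host was called higher for 4, lower for 2 and not called for 1. For the 49 hosted members not called, the host was called higher for 38, lower for 6 and not called for 5. A host called higher was thus the most common case whatever the call of the member, and the 18 are not read as members following their hosts. Spearman's rho between the log2 differences of member and host was -0.02 over 82 pairs, as a description in which both values come from the same libraries.

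The log2 difference of each member minus that of its host was fitted over all 1756 pairs of a gene inside another on the same strand. Of the 82 pairs with a member, 11 were called above the host and 30 below, beside 4.9% above and 56.7% below of all such pairs. The count below was 14 without KD 1, 25 without KD 2 and 27 without KD 3. H/ACA members were above the host in 7 and below in 12 of 40 pairs, C/D members above in 1 and below in 16 of 32, and Cajal body RNAs above in 3 and below in 2 of 10. The median of member minus host was -0.77 over the 82 pairs and -2.08 over the 1674 pairs without a member. Among the pairs called above the host, SNORA11, SNORA47, SNORA74D and SNORD93 reached the filter only through KD. Among those called below it, the SNORA73 copy, SNORD56B and SNORD91B reached it only through WT. The counts above include these pairs, whose calls are descriptions.

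**Figure D4:**
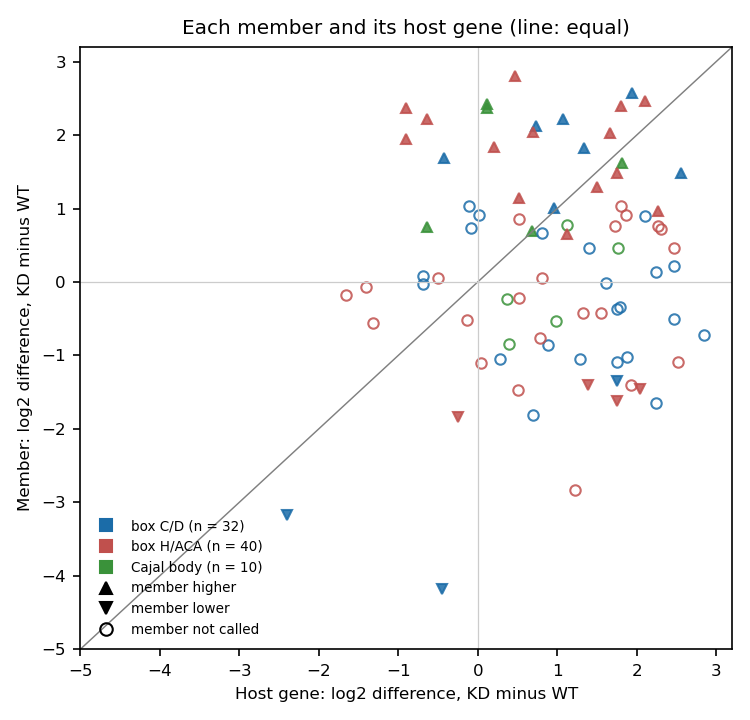
Each point is 1 of 82 members, placed by the log2 difference, KD minus WT, of its host (x) and of the member itself (y), with the diagonal marking equal differences. The points form no band along the diagonal, and most hosts lie to the right of 0 while members lie on both sides.

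The long noncoding host SNHG4 holds 2 H/ACA members. SNORA74D had 53.1, 26.4 and 41.1 normalized counts in KD 1, 2 and 3, against 6.66 in WT, and SNORA74A had 317, 119 and 228 in KD 1, 2 and 3, against 52.2 in WT. SNHG4 itself averaged 2629 ± 158 in KD (SD, n = 3) and 4907 in WT. Both members were higher in every KD library while the host was lower in every one. Member minus host was 2.85 ± 0.49 on the log2 scale for SNORA74A (limma adjusted p = 0.000728), whose own rise was not called with no filter. SNORA74D, with 6 reads in WT, reached the filter only through KD, and its 3.27 ± 0.62 is a description.

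SNORA49 rose inside a host that fell. It had 199, 162 and 179 normalized counts in KD 1, 2 and 3, against 37.8 in WT, while EP400, a chromatin remodelling factor, averaged 5341 ± 382 in KD and 8304 in WT (member minus host 2.86 ± 0.35, limma adjusted p = 0.000122). MAGED2, the host of SNORA11, averaged 1728 ± 97.2 in KD and 1244 in WT, and member minus host was 2.34 ± 0.52, again as a description. SCARNA5 and SCARNA6 rose while ATG16L1, an autophagy factor, averaged 1324 ± 31.1 in KD and 1221 in WT and was not called. Their differences minus that of the host were 2.25 ± 0.22 and 2.30 ± 0.29 (limma adjusted p = 3.7e-05 and 0.00013). SCARNA21 stood 1.40 ± 0.24 above CHD3, which was lower in KD, and SCARNA7 moved with KPNA4 (member minus host 0.01 ± 0.19, limma adjusted p = 0.983).

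SNORA71B had a host that fell, SNHG17, at 1857 ± 99.0 in KD and 4920.4 in WT. The member, which was not called on its own, therefore stood 1.34 ± 0.29 above it (limma adjusted p = 0.00288). SNORD39 and MIR31HG were both lower in KD, where MIR31HG averaged 847 ± 50.7 against 4478 in WT, and member minus host was -0.78 ± 0.51 (limma adjusted p = 0.196). SNORA73B lies in both RCC1 and SNHG3 of GENCODE 29. Against RCC1, the more abundant one, which averaged 7397 ± 572 in KD and 1712 in WT, it stood 0.36 ± 0.16 higher (limma adjusted p = 0.0616).

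The members furthest below their hosts lay mostly in hosts with large rises. The ranking itself favours such hosts, because the host's difference is subtracted, so nothing is read from this. SNORD70 had 18.0, 23.3 and 8.89 normalized counts in KD 1, 2 and 3, against 51.1 in WT, inside NOP58, a core protein of C/D particles that averaged 8199.9 ± 876 in KD and 1722 in WT. SNORD73B had 88.1, 49.7 and 65.6 in KD 1, 2 and 3, against 110.0 in WT, inside RPS3A, which averaged 31245 ± 3491 in KD and 4303 in WT. Both members lay below WT in every KD library and neither was called on its own, although edgeR, equal totals and a pseudocount of 5 called SNORD70 lower and equal totals called SNORD73B lower, while member minus host was -3.90 ± 0.70 and -3.58 ± 0.40 (limma adjusted p = 0.00095 and 7.36e-05). SNORA65 in RPL12 stood -3.604 ± 0.81 from its host on the log2 scale (limma adjusted p = 0.00335) at 27.5, 13.2 and 6.67 in KD 1, 2 and 3 and 29.99 in WT.

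SNORA65 was not called on its own either, at a log2 difference of -1.09. The rest of the 5 pairs furthest below their hosts had the fewest KD reads of the member, 21 and 10 over the 3 libraries. SNORA65 had 52 and SNORD70 had 57. An SNORA73 copy in RNGTT (ENSG00000222145) had 0.948, 10.9 and 6.67 normalized counts in KD 1, 2 and 3, against 38.9 in WT, and stood -4.05 ± 1.15 from its host. SNORD56B, described above, stood -3.73 ± 1.00 from SIPA1L1, a host that was itself lower in KD (log2 difference -0.45). Both members reached the filter only through WT, so a fall was needed for them to be members, and their values are descriptions. Apart from these, RPS12, a host at a log2 difference of 2.47, holds 3 members. SNORD100, SNORD101 and SNORA33 stood at -0.50, 0.22 and 0.46, without a call of their own. Member minus host was -2.97 ± 0.46, -2.25 ± 0.55 and -2.01 ± 0.28, so all 3 were called below RPS12.

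Genes for the proteins of these particles were mostly called higher. Of 36 listed genes 35 were tested, 34 were called higher and NOP9 was not called, with a median log2 difference of 1.17, beside 31.4% higher over all genes tested and 49.8% over those with a mean of 100 or more. With equal totals 31 were called higher and 1 lower, beside 20.3% and 53.6% of all genes. Among H/ACA core proteins, NOP10 averaged 6841 ± 339 normalized counts in KD (SD, n = 3) and 1213 in WT, a log2 difference of 2.49, and GAR1, dyskerin (DKC1) and NHP2 stood at 1.72, 1.17 and 0.97. Among C/D core proteins, fibrillarin (FBL) averaged 32352 ± 1500.0 in KD and 10618 in WT, a log2 difference of 1.61, and NOP58, SNU13 and NOP56 stood at 2.25, 1.84 and 1.17. The nucleolar proteins NPM1 and NCL stood at 2.36 and 1.94, and the assembly factor ZNHIT3 and the export adaptor PHAX at 2.34 and 1.86. SMN2 was under the filter and is a near-identical copy of SMN1, so it was not tested. Coilin (COIL), the marker protein of Cajal bodies, averaged 3158 ± 268 in KD and 1240 in WT.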

How the data were processed

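Total RNA libraries of OVCAR3 cells, 3 with a hairpin against ANAPC1P2 (KD) and 1 wild type (WT), were prepared after ribosomal RNA depletion with a kit that marks strand, per the labels' protocols. STAR 2.7.11b, featureCounts 2.0.6, DESeq2 and hg38 are named in the submitters' processing notes, while annotation release, strand setting and handling of multiply mapped reads are not stated there. The deposited signal is a normalized read count per gene. Every value was a whole multiple of 1 step per library to within 0.001 reads, so whole reads were recovered.

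The main test was limma 3.58.1 (R 4.3.3) with a mean trend on log2(normalized count + 1) for 23344 genes with a mean of at least 10, two-sided, at an adjusted p under 0.05 (Benjamini-Hochberg). Differences on that scale understate the change of scarce genes. The spread comes from the 3 KD libraries, and the lone WT library is assumed to vary like them. Member minus host was fitted the same way over 1756 pairs, with the trend on the lower mean of the 2 genes. edgeR 4.0.16 (quasi-likelihood) and DESeq2 1.42.0 on recovered reads, other scalings, pseudocounts of 0.5 and 5, filters and leaving out each KD library were alternatives. The tests were run on simulated data in which WT was drawn with the same spread as KD. The simulation therefore cannot check the assumption on the lone WT library. Intervals are at 95%, exact for ratios of reads and Wilson for the share of reads. With no molecular identifiers, they cover counting error only.

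Places, hosts and sequences came from GENCODE 29 on GRCh38, the assembly also called hg38, where 100 of 101 members were found and SNORA74C-2 was not. Named members are the 4 most abundant per class, the 8 largest rises and 8 largest falls among called members with at least 30 in the higher group and no overlap, the RNAs of precursor processing and with promoters of their own, and the 5 pairs furthest above and below the host, with up to 6 protein genes. A result that this rule names is not reported here. Others named were chosen after their values were seen. The members, gene lists and rules were chosen with earlier results of these data known.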

Additional observations from a re-analysis of the deposited data

How the results depend on the processing

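With equal library totals, the members called lower were 24 against 13, made of 12 C/D against 6 and 12 H/ACA against 7, the C/D members called higher were 7 against 11, the Cajal body RNAs called higher 3 against 5, the hosts called lower 19 against 10, and 1 protein gene was called lower. With no filter on level 5 members were called lower (2 C/D and 3 H/ACA), at a mean of 50 or more 5 (1 H/ACA), and DESeq2 called 4 H/ACA members lower. Members above their host were 7 with a mean of at least 50 and 7 with protein-coding hosts alone, against 11, and members below it were 8 with a mean of at least 50, against 30. The stricter filter leaves 40 members and 31 pairs, and protein-coding hosts leave 72 pairs. The cause of the other changes was not tested.

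Leaving out 1 KD library gave 28 to 33 members called higher and 11 to 12 lower, 9 to 11 and 6 C/D, 14 to 18 and 5 to 6 H/ACA, 5 Cajal body RNAs higher, 51 to 53 hosts higher and 10 lower, 33 to 34 protein genes higher, and 8 to 13 members above and 14 to 27 below their host. SNORA71B turned positive with TMM scaling (0.033) and median-of-ratios scaling (0.113), ranged from -0.23 to 0.085 as 1 KD library was left out (positive without KD 2), and was not called in any of these, while with equal totals it was -0.63 and called lower. Of the other values of named members under alternatives, 364 kept direction and side of the threshold, 17 lost the call and 13 gained it. No paired analysis was possible because WT has 1 library and its label carries no set number.

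Depth limits the scarce members most: 6 WT reads stood behind SNORA11, and 10 KD reads over 3 libraries behind SNORD56B. With 1 WT library, spread between wild-type cultures is unknown.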
